A study of Mus musculus with 12 samples.

Results

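The genes described here encode the neuronal cytoskeleton and its motors: tubulins, microtubule-associated proteins, actin and its binding proteins, kinesins, dynein, myosins, spectrins and ankyrins. They were chosen by gene symbol, with a pattern of name stems that uses no measured value, though it was drawn up with earlier results of these data known. The pattern found 75 genes among the 3366 named 5′ UTRs (2.23%) on which eIF4G2 CLIP tags were counted. eIF4G2 is a translation initiation factor related to the scaffold eIF4G, and CLIP (crosslinking immunoprecipitation) sequences the RNA fragments that ultraviolet light has bonded to a protein, so that a tag marks a place on an mRNA that the protein touched.

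The neurons were primary cortical cultures from mouse, kept either at rest or depolarized. Depolarized neurons were first silenced for 2 hours (tetrodotoxin plus DL-AP5), then given 55 mM KCl for 1 hour and left for 30 minutes. Neurons of both conditions received cycloheximide, which stalls ribosomes, for 2 minutes before harvest, so no library reports on neurons without it. The question was on which 5′ UTRs eIF4G2 tags change in number when neurons are activated. The labels list 6 replicates of each condition, but the values given for depolarized replicate 5 are a copy of resting replicate 5, which leaves 6 resting and 5 depolarized libraries. They held 264 to 5240 tags on 5′ UTRs, and the replicate 1 pair alone held 53.7% of all 15767 tags. The libraries fell into sets, replicates 1 to 3 and replicates 4 to 6, each with both conditions: deviations from the condition means correlated at -0.29 to -0.11 between a resting and a depolarized library of different sets, and at 0.03 to 0.29 within a set. Of the cell type markers, 13 of 18 neuronal genes were listed, with 188 tags, against 2 of 9 astrocyte genes with 11 tags, 1 of 8 microglial genes with 1 tag, and none of the oligodendrocyte or endothelial genes. Tubb3, a defining neuronal tubulin, was not among the listed 5′ UTRs. In such bulk cultures fewer cells of a type and less RNA per cell cannot be told apart. The tags were not divided by mRNA amount, so more mRNA and more crosslinking per mRNA cannot be told apart either.

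Microtubules are hollow polymers of tubulin that form the tracks of axons and dendrites. Microtubule-associated proteins stabilize or sever them, and kinesins and dynein walk along them with vesicles, mitochondria and RNA granules. Actin filaments fill the growth cone and the dendritic spine, where profilin, cofilin and the Arp2/3 complex set how fast they grow, branch and are taken apart. Several of the mRNAs, among them Map2 mRNA, are well known for their presence in dendrites.

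The hexamer CGCGGC is the one that the study's crosslink analysis names, so the places where it occurs in these 5′ UTRs are shown first. It was searched as these letters on the transcribed strand, and occurred 43 times, in 29 of the 75 annotated 5′ UTRs (38.7%), against 36.8% of the 3316 5′ UTRs for which a sequence was found. The windows below are those of the 4 genes with at least 10 tags that hold it. They were read from GRCm38 (mm10) 5′ to 3′ on the gene's strand, within the annotated 5′ UTR, with the hexamer in capitals.
Kif5c, chr2:49619576-49619605, plus strand: cagcggttggttCGCGGCctcctcggtggc
Kif5a, chr10:127263158-127263187, minus strand: aaaccccgccccCGCGGCtccggcgcgccc
Kif5a, chr10:127263125-127263154, minus strand: ccaggcccgcagCGCGGCtgcagcgcgagg
Kif5a, chr10:127263092-127263121, minus strand: ggagaggcacagCGCGGCgagaggaccaga
Dynll2, chr11:87987340-87987369, minus strand: gcagggggatacCGCGGCggcagcggctgc
Kif3c, chr12:3365268-3365297, plus strand: tgttccccgcccCGCGGCcccgccccttgc
All 4 genes encode motor subunits: kinesin heavy chains, a kinesin-2 motor and a dynein light chain. The Kif5c site lies 68 bases before the start codon and the Kif3c site 695 bases before it. Of the 4 genes with the most tags, Dpysl2, Map1b and Gap43 have no CGCGGC in the annotated 5′ UTR, and Map6 has none in the 533 bases used here but 1 in its longest annotated 5′ UTR of 659 bases. Among the 16 genes with at least 10 tags the hexamer was present in 25.0% (31.3% with the longest annotated 5′ UTR of each gene, through Map6), against 52.5% of all 5′ UTRs with that many tags (51.3% with the longest). The 5′ UTRs that hold it carried 30.9% of the tags of cytoskeleton and motor genes, against 46.5% of the tags of all listed 5′ UTRs. These are descriptions of sequence with no test, and where within a 5′ UTR the tags lay is not in the counts.

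All 75 genes had at least 1 tag, and together they held 673 tags, 4.27% of the total. Of these genes, 16 had at least 10 tags (21.3%, against 9.42% of all 5′ UTRs), 39 had 2 to 9, and 20 had a single tag. The tags were concentrated, with 40.0% on Dpysl2, Map1b, Map6, Gap43 and Kif3c and 73.1% on the 16 genes. Tags were seen in both conditions for 37 genes, only in resting libraries for 12 and only in depolarized libraries for 26. The last 2 groups hold genes with few tags, at most 4 and 6 per gene. For 11 genes with more than 1 tag, every tag came from 1 library.

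Cytoskeleton and motor genes took a mean of 2.95% ± 0.942 (SD, n = 6) of the tags in resting libraries and 4.37% ± 1.33 (SD, n = 5) in depolarized libraries. The resting shares, for replicates 1 to 6, were 3.66%, 4.31%, 2.29%, 1.78%, 2.48% and 3.18%. The depolarized shares were 5.06%, 5.24%, 5.46%, 3.83% and 2.27% for replicates 1, 2, 3, 4 and 6. Replicates 1, 2, 3 and 4 had the higher share after depolarization and replicate 6 the lower one, and the groups overlapped. Depolarized replicate 6 was also the library with the fewest tags, and its 6 tags on these genes give a Wilson 95% interval of 1.05% to 4.87%. The difference of the means was 1.42 percentage points, beside a spread of 1.15 (root of the unweighted mean of the 2 variances), and 1.01 without Dpysl2. It was 1.83 in replicates 1 to 3 and 0.57 in replicates 4 to 6, with 1 copied library missing from the latter.

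**Figure D1:**
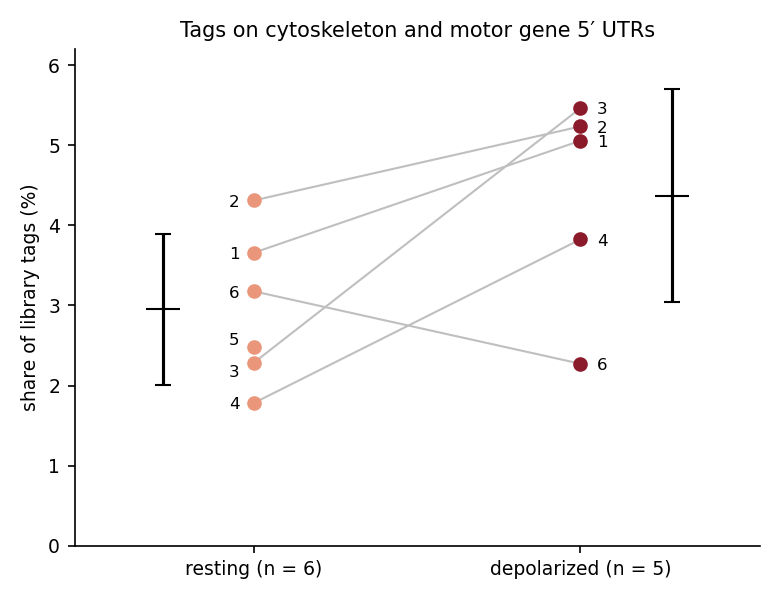
Share of each library's 5′ UTR tags that fell on the 75 cytoskeleton and motor genes, in percent, for 6 resting and 5 depolarized libraries. Points are libraries with their replicate numbers, grey lines join libraries with the same number, and the bars beside them are the mean and SD. In 4 of 5 pairs the depolarized library is higher, and in replicate 6 it is lower, at 2.27% against 3.18%.

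Changes of single genes were tested in 2 ways. The pooled test sums the tags of a condition, scales the sums to equal depth and applies an exact two-sided binomial test, whose P is given below as the exact P, with P below 0.2 and no correction. The study's methods give depth-normalized tags, a binomial test and that threshold, and the summing of replicates, the two-sided form and the lack of correction were chosen here. It treats tags as independent and does not see the spread between replicates. The other, which weighs the spread between replicates, was the quasi-likelihood test of edgeR on 5′ UTRs with at least 10 tags. By the pooled test 11 genes had more tags after depolarization (background 5.21% of the 3280 5′ UTRs with a tag) and 4 had fewer (background 4.51%). Among the 16 genes with at least 10 tags, 7 had more and 2 fewer, against 33.8% and 12.3% of all 5′ UTRs with that many tags. Both counts were of the same order as the background at matched tag number. With replicate numbers as a block, 7 genes had more tags (background 4.36%) and 6 fewer (background 10.1%), and Map1b, Dynll2, Marcksl1, Evl, Actn1, Sptan1 and Cap1 were no longer called. Without replicate 1, the deepest pair, 5 genes had more tags (background 4.79%) and 1 fewer (background 2.1%). Of these 5, Dpysl2, Map1b, Pfn1 and Evl were also called with all replicates and Dclk1 was not. With replicate 2, 3, 4, 5 or 6 left out, 10, 9, 11, 11 and 10 genes had more tags, beside backgrounds of 4.53%, 5.27%, 5.12%, 5.27% and 5.32%. In the same runs 4, 4, 5, 4 and 3 genes had fewer tags, beside backgrounds of 4.31%, 3.1%, 4.77%, 4.26% and 4.78%. In replicates 4 to 6 alone, 1 gene, Myh9, had more tags (background 3.73%) and 0 had fewer (background 1.44%). At P below 0.05 over all replicates, 5 genes had more (background 2.56%) and 1 fewer (background 1.25%). The median pooled log2 fold change was 0.76 for the 16 genes and 0.37 for all 5′ UTRs with at least 10 tags. It lay above 0 in 14 of the 16 genes, against 61.8% of all such 5′ UTRs. By the mean level per library, Dynll2 and Stmn4 were lower after depolarization, as were Kif5c and Tubb5. Without replicate 3 the edgeR log2 fold change lay above 0 in 9 and below 0 in 5 of the 14 genes then tested.

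edgeR called none of the 16 genes, and none of all 317 5′ UTRs tested (background 0.0%). At an unadjusted P below 0.05, edgeR found 1 gene higher, Pfn1, and 0 lower, against a background of 7.57% higher and 0.315% lower, and DESeq2 also called 0 after adjustment, with 1 gene, Dpysl2, below 0.05 before it (higher, background 0.631%). The smallest adjusted P among the 16 was 0.561. Without replicate 1 edgeR tested 8 of these genes and called 0, whereas it called 7 of all 108 5′ UTRs then tested (background 6.48%). It called 1 5′ UTR, and none of these genes, without replicate 6 (background 0.339%) and with library totals in place of TMM scaling (background 0.315%). With the replicate block no gene stayed below an unadjusted P of 0.05. The median log2 fold change in this fit was 0.83 for the 16 genes and 0.52 for all tested 5′ UTRs, so single fold changes below are read against a median that is itself above 0. The common dispersion was 1.00, a spread between replicates far above counting error. No gene had groups that did not overlap (background 0.061%).

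**Figure D2:**
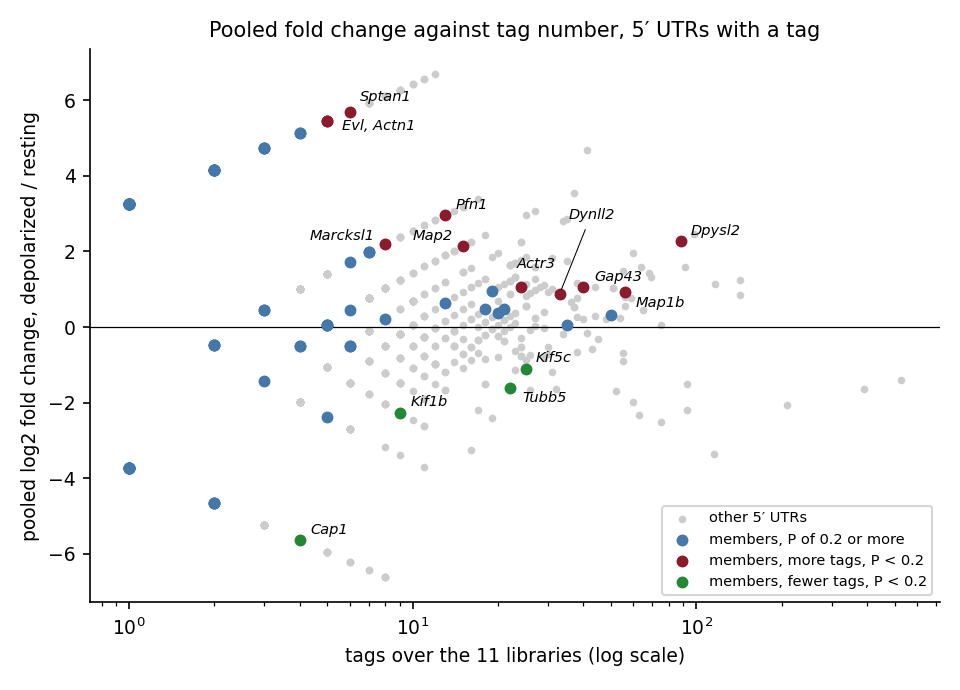
Pooled log2 fold change (depolarized over resting, pseudocount 0.1) against the number of tags over the 11 libraries, on a log scale, for the 3280 5′ UTRs with a tag. Grey points are other 5′ UTRs, blue points cytoskeleton and motor genes with P of 0.2 or more, dark red and green points those with more and fewer tags at P below 0.2. Dpysl2, with 88 tags, lies at 2.28, and the rows of points at the left are genes with few tags that share the same counts.

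Microtubule-associated proteins held the most tags, 284 on 18 genes or 42.2% of the tags of all 75. Their summed level was 11.4 ± 3.56 tags per 1000 library tags at rest (SD, n = 6) and 19.7 ± 7.35 after depolarization (SD, n = 5). The pooled test gave more tags for 3 of the 18, Dpysl2, Map1b and Map2, and fewer for 0.

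Dpysl2 encodes CRMP2, which binds tubulin dimers and promotes axon outgrowth. In resting replicates 1 to 6 its 5′ UTR had 3, 0, 1, 2, 1 and 4 tags, against 57, 6, 10, 3 and 1 in depolarized replicates 1, 2, 3, 4 and 6. Per 1000 library tags these are 0.931, 0, 3.27, 2.74, 1.08 and 4.38 at rest and 10.9, 6.28, 4.37, 5.46 and 3.79 after depolarization. The level was higher after depolarization in 4 of 5 pairs and lower in replicate 6, which went from 4 tags to 1, and the groups overlapped only through resting replicate 6. The summed tags were 4.87 times higher after depolarization (exact 95% interval 2.58 to 10.2, exact P = 1.81e-09). The mean level was 2.07 ± 1.66 at rest (n = 6) and 6.16 ± 2.81 after depolarization (n = 5), with P = 0.013 in an exact two-sided permutation test over libraries. That P was 0.986 after Benjamini-Hochberg adjustment over the 317 5′ UTRs. The permutation test moved libraries freely between conditions, without regard to replicate numbers or to the sets of replicates. Of the 16 genes, Dpysl2 alone was below 0.05 before adjustment, against a background of 3.47%. The edgeR log2 fold change was 1.98 (SE 1.09, adjusted P = 0.630). With replicate numbers as a block in edgeR it was 1.92 (unadjusted P = 0.111). Of its 77 depolarized tags 57 came from replicate 1. Without that replicate the pooled log2 fold change was 0.99 (exact P = 0.122), and in replicates 4 to 6 it was 0.84 (exact P = 0.581). The 5′ UTR is 1 exon on chr14:66868369-66868688, minus strand, with 320 bases and 45.3% GC, against a median GC of 67.9% over the 75 genes.

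Map1b, a large protein that binds microtubules and is abundant in growing axons, carried 12, 0, 2, 1, 0 and 0 tags at rest and 23, 5, 12, 1 and 0 after depolarization. Its level was higher in 3 pairs and lower in 1, from 6.54 to 5.24 tags per 1000 in replicate 3. The ratio of summed tags was 1.90 (1.03 to 3.70, exact P = 0.027). With the replicate block the exact P was 0.550, and the gene was no longer called, whereas without replicate 1 the pooled log2 fold change was 2.23 (exact P = 0.00443), against 0.92 with all replicates. The edgeR log2 fold change was 1.17 (SE 0.98, adjusted P = 0.829).

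Map2, the classic marker of dendrites, carried 0, 1, 0, 0, 1 and 0 tags at rest and 8, 0, 3, 1 and 1 after depolarization. The level was higher after depolarization in 4 of 5 pairs and lower in replicate 2, where the resting library held 1 tag. The ratio of 4.52 has a wide interval, 1.02 to 41.3, since it rests on 2 resting tags (exact P = 0.0225). The pooled log2 fold change of 2.13 was 0.97 without replicate 1, when the gene was not called (exact P = 0.453), and 3.14 without replicate 2 (exact P = 0.00635). Its 5′ UTR overlaps an antisense gene, Gm10558, and the counts do not say which strand was read.

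Map6, which protects microtubules from cold, carried 11, 0, 0, 0, 3 and 4 tags at rest and 16, 4, 9, 3 and 0 after depolarization (exact P = 0.568). Stmn4, of the stathmins that bind free tubulin, carried 20 tags, of which 10 lay in depolarized replicate 3 (exact P = 0.824). Dclk1, a doublecortin-like kinase, carried 5 tags at rest and 14 after depolarization (exact P = 0.238). None of these 3 passed the pooled test, although Dclk1 did so without replicate 1. Mapt, which encodes tau, had 2 tags, both in depolarized libraries.

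**Figure D3:**
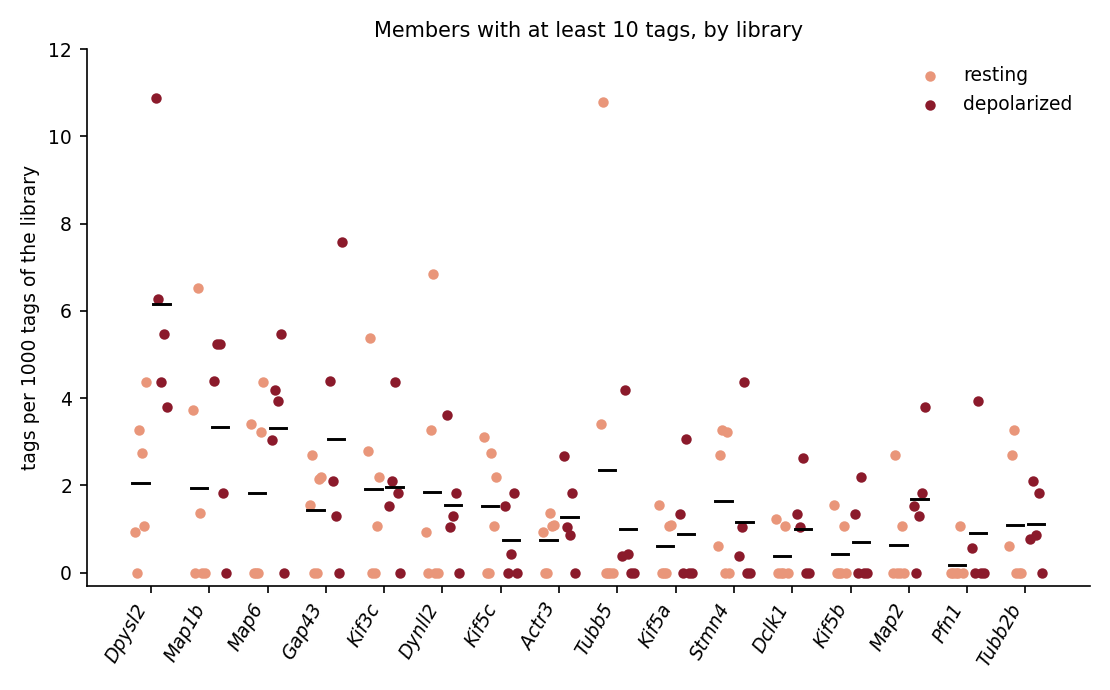
Tags per 1000 tags of the library for the 16 cytoskeleton and motor genes with at least 10 tags. Each point is 1 library, resting in salmon and depolarized in burgundy, and black lines are the means. Dpysl2 is the gene whose 5 depolarized libraries all lie at 3.79 or above, while most other genes have libraries of both conditions at 0.

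Gap43 is a growth cone protein that acts on the actin cortex. It carried 5, 1, 0, 0, 2 and 2 tags at rest and 23, 2, 3, 0 and 2 after depolarization. The ratio was 2.09 (0.994 to 4.79, exact P = 0.047), and 3 pairs were higher while 1 was lower. Without replicate 1 the log2 fold change was 0.16 (exact P = 1). The edgeR value was 0.98 (SE 0.98, adjusted P = 0.862).

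Kinesins, the motors that move cargo mainly toward microtubule plus ends, held 121 tags on 10 genes. Their summed level was 4.95 ± 3.92 per 1000 at rest (n = 6) and 5.22 ± 4.66 after depolarization (n = 5), a difference smaller than the spread between libraries. The pooled test gave more tags for 0 kinesin genes and fewer for 2, Kif5c and Kif1b. Kif5c, a neuronal kinesin-1 heavy chain whose hexamer window is printed above, carried 10, 0, 0, 2, 1 and 2 tags at rest and 8, 0, 1, 1 and 0 after depolarization. Its ratio was 0.464 (0.186 to 1.10, exact P = 0.0755), and the level was lower in 3 pairs and higher in 1. Its paralogs Kif5a and Kif5b both had a ratio of 1.39, and neither passed (exact P = 0.664 and exact P = 0.629). Without replicate 1 neither was called: the log2 fold change of Kif5c was then -1.59 (exact P = 0.289), against -1.10 with all replicates, while that of Kif1b turned to 3.32 on the 1 tag left (exact P = 1). Whether Kif5c differs from them was not tested. Kif3c had the most kinesin tags, 35, and a ratio of 1.04 (0.506 to 2.22). Kif1b, a carrier of synaptic vesicle precursors and mitochondria, had 7 resting tags, all in replicate 1, and 2 depolarized tags (exact P = 0.0654).

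Dynein, the motor toward microtubule minus ends, and its cofactor dynactin held 40 tags on 6 genes, 33 of them on the light chain Dynll2. Dynll2 carried 3, 0, 1, 5, 0 and 0 tags at rest and 19, 1, 3, 1 and 0 after depolarization. Summed, the ratio was 1.86 (0.833 to 4.54, exact P = 0.15), whereas the mean level per library was 1.84 ± 2.76 at rest (n = 6) and 1.56 ± 1.33 after depolarization (n = 5). The sum and the mean thus point in opposite directions, with 5 tags in resting replicate 4, a library of 729 tags, and 19 in depolarized replicate 1, the largest library. Without replicate 1, 5 or 6 it was not called. No other gene of this family had more than 2 tags.

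Tubulins and their cofactors, the building blocks of microtubules, held 45 tags on 8 genes, 25 at rest and 20 after depolarization. The pooled test gave fewer tags for 1, Tubb5, and more for 0. Tubb5 carried 11, 4, 0, 0, 0 and 0 tags at rest and 2, 4, 1, 0 and 0 after depolarization. Its ratio was 0.325 (0.112 to 0.846, exact P = 0.0227), and without replicate 1 the pooled log2 fold change was 0.001 (exact P = 1). Every tag lay in replicates 1 to 3. Tubb2b carried 4 tags at rest and 9 after depolarization (exact P = 0.581), and its paralog Tubb2a had 1 tag. Whether reads were shared between paralogs was not tested.

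**Figure D4:**
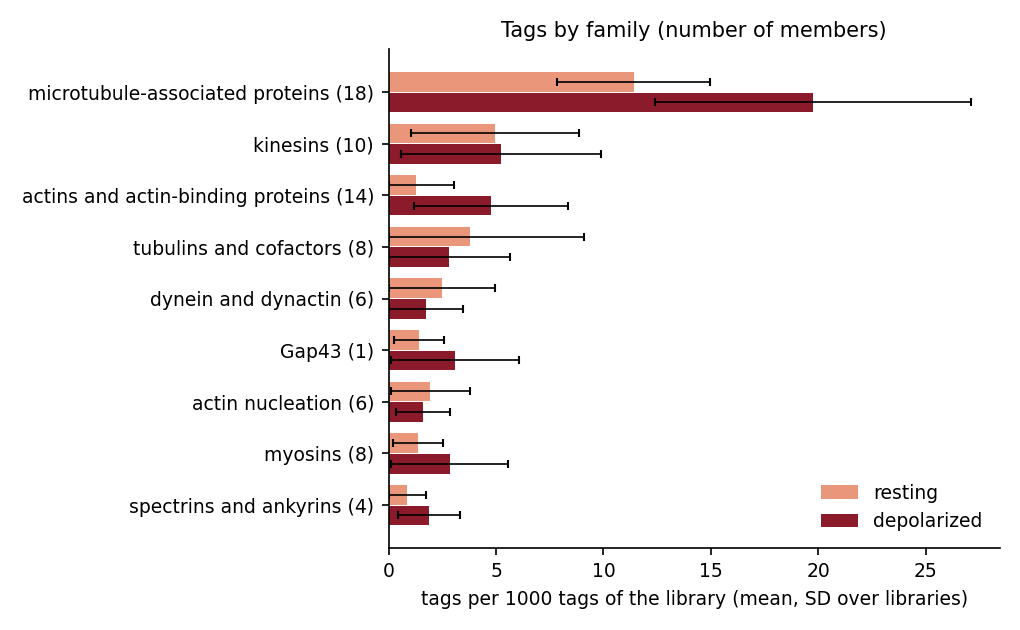
Summed tags per 1000 tags of the library for the 9 families, as mean (bars) and SD (lines, cut at 0) over 6 resting and 5 depolarized libraries. The number of genes stands in brackets. Microtubule-associated proteins lie highest, at 11.4 and 19.7, and in all 9 families the error bars of the conditions overlap.

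Actins and actin-binding proteins held 55 tags on 14 genes, 10 at rest and 45 after depolarization. The summed level was 1.30 ± 1.75 per 1000 at rest (n = 6) and 4.77 ± 3.59 after depolarization (n = 5). The pooled test gave more tags for 4, Pfn1, Marcksl1, Evl and Actn1, and fewer for Cap1. Pfn1, or profilin, which feeds actin monomers to growing filaments, had 1 resting tag in replicate 5 and 3, 0, 9, 0 and 0 depolarized tags. Its ratio was 8.35 with an interval of 1.24 to 357 (exact P = 0.0117), while edgeR gave a log2 fold change of 2.69 (SE 1.25, unadjusted P = 0.0309, adjusted P = 0.561). Of its 13 tags 9 lay in depolarized replicate 3, and without that replicate it was no longer called. Marcksl1, an actin crosslinking protein, had 1 resting and 7 depolarized tags (exact P = 0.125). Evl, which protects growing filament ends, had 5 tags, all in depolarized replicate 2. Actn1, an actin crosslinker, had 3 and 2 tags in depolarized replicates 1 and 3. Against a floor of 3 tags over the resting libraries, Evl and Actn1 were each at least 1.16-fold higher after depolarization, but counting error in the depolarized tags leaves an exact 95% lower limit of the ratio of 0.638. Cap1, which recycles actin monomers, had 4 tags, all in resting replicate 6, and was at least 1.92-fold lower after depolarization against the same floor over the depolarized libraries, with an exact 95% upper limit of the ratio of 1.05. These 4 calls each rest on few libraries: Marcksl1 was lost without replicate 1, Evl without replicate 2, Actn1 without replicate 1 or 3, and Cap1 without replicate 6. Cfl1, or cofilin, carried 1 resting and 6 depolarized tags, the latter in 4 of 5 libraries, and did not pass (exact P = 0.219). Actb and Actg1, the cytoplasmic actins, had 1 tag each.

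Actin nucleation genes, which encode the Arp2/3 complex and its activators, held 35 tags on 6 genes, and 24 of these tags were on Actr3, the Arp3 subunit. Actr3 carried 3, 0, 0, 1, 1 and 1 tags at rest and 14, 1, 2, 1 and 0 after depolarization. Its level was higher in 4 of 5 pairs and lower in replicate 6, with a ratio of 2.09 (0.794 to 6.43, exact P = 0.134). Without replicate 1 it was not called. The edgeR log2 fold change was 0.90 (SE 1.04, adjusted P = 0.871).

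Myosins, the actin-based motors, held 33 tags on 8 genes with none passing the pooled test. With the replicate block Myh9 and Myo16, of 3 and 7 tags, had more (background 4.36%). Myl6, of 2 tags, then had fewer (background 10.1%). Myo5a, which carries vesicles into spines, had 3 resting and 5 depolarized tags (exact P = 1). Spectrins and ankyrins, which build the membrane skeleton of the axon, held 20 tags on 4 genes. Sptan1 had 3 tags each in depolarized replicates 1 and 3 and 0 at rest (exact P = 0.0625), at least 1.39-fold higher against the floor of 3 tags with an exact 95% lower limit of the ratio of 0.82, and was not called without replicate 1 or 3. Ank3, the organizer of the axon initial segment, had 3 tags in each condition. No neurofilament or septin gene matched by the name pattern was listed.

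The annotated 5′ UTRs of the 75 genes had a median length of 256 bases, against 306 for all listed genes, and a median GC content of 67.9% against 65.9%. An ATG, which could open an upstream reading frame, was present in 50.7% of them, against 66.6% of all. Among the 16 genes with at least 10 tags it was present in 43.8%, against 66.2% of all 5′ UTRs with that many tags. With the longest annotated 5′ UTR of each gene these shares were 62.5% and 74.5%, and over all genes 62.7% of the 75 against 73.2%. Kif3c had 6 ATGs in 791 bases, the longest of the 75, and Dpysl2 and Gap43 had 0. Map1b had 0 in its 53-base 5′ UTR and 5 in its longest annotated one. Across the 75 genes the number of tags went with length at a Spearman rho of 0.33 (0.24 over all 3316), a description across genes that share libraries. Per 1000 bases, the 16 genes had a median of 90.4 tags, against 42.6 for all 5′ UTRs with at least 10 tags. Map1b led with 1057 tags per 1000 bases of its 53-base annotated 5′ UTR, but with its longest annotated 5′ UTR of 537 bases this was 104. Dpysl2 followed with 275 and Gap43 with 268, and both values are the same with the longest 5′ UTR. Of the 75 5′ UTRs 7 overlap another annotated gene and 0 overlap a small RNA gene.

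**Figure D5:**
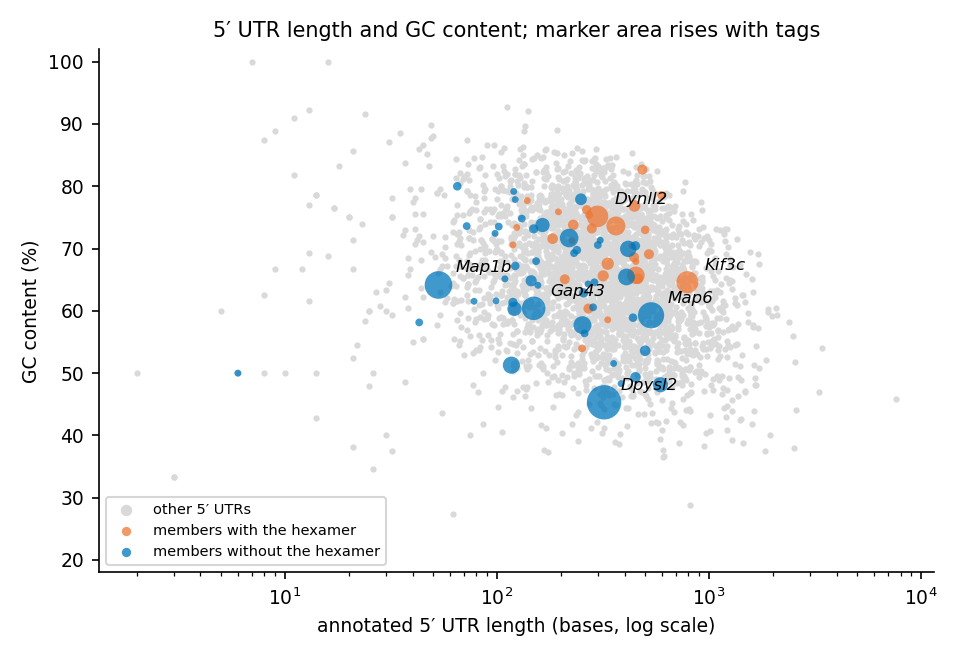
GC content in percent against the annotated 5′ UTR length in bases (log scale). Grey points are other listed 5′ UTRs, orange and blue points are cytoskeleton and motor genes with and without CGCGGC, and marker area rises with the number of tags. Dpysl2 lies low, at 45.3% GC, and Map1b and Gap43 are likewise without the hexamer. Map6 is drawn without it, but has 1 in its longest annotated 5′ UTR.

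Other genes of the same pathways, outside the name pattern, were counted from lists of regulators. Of 52 microtubule regulators 20 were listed, with 179 tags, and 1 had more tags by the pooled test and 0 fewer (backgrounds 5.21% and 4.51%). That gene, named after its values were seen, was Pafah1b1, which encodes the dynein regulator LIS1. It carried 22, 0, 4, 0, 1 and 1 tags at rest and 56, 6, 21, 5 and 0 after depolarization, with a pooled log2 fold change of 1.13 (exact P = 0.000107). Of 80 actin regulators 21 were listed, with 107 tags, and 3 had more tags and 0 fewer, against the same backgrounds. These were likewise named after their values were seen. Enah, of the same family as Evl, had 0 tags at rest and 11 after depolarization, 8 of them in replicate 3 (exact P = 0.00391). Mtss1, a membrane-bending protein, had 2 tags at rest and 14 after depolarization (exact P = 0.0129), and Fscn1, which bundles filaments, had 0 and 5 (exact P = 0.125). None of 12 intermediate filament genes was listed.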

How the data were processed

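The assay was eIF4G2 CLIP in primary cortical neurons from mouse, at rest or after KCl. The authors filtered and demultiplexed the reads, collapsed exact duplicates, aligned them to mm10 with Rsubread and counted them with summarizeOverlaps over the 5′ UTRs of UCSC known genes, using the longest transcript per gene. cutadapt is named in the submitters' processing notes. The values were deposited as raw counts per 5′ UTR and library, with no normalization. How reads mapping to several places, or strand, were handled is not given in the sources used here.

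The copied values labelled depolarized replicate 5 were used once, as resting replicate 5. The study states fewer replicates of this experiment than the labels list. The study's methods call the replicates biological, each prepared from its own culture dishes. Levels are tags per 1000 tags of the library. Where no tag was seen, up to 3 may be missed, that is 0.573 to 11.4 per 1000 between the largest and smallest library, and intervals (95%) cover counting error only. For the pooled test, sums were scaled to the mean total and rounded, and log2 fold changes used a pseudocount of 0.1. edgeR 4.0.16 (R 4.3.3) used TMM, library sizes over all 5′ UTRs and Benjamini-Hochberg adjustment on the 317 5′ UTRs with at least 10 tags. Its SE is approximate, from the fold change and the F statistic. DESeq2 1.42.0 was an alternative. The permutation test took all 462 assignments of libraries to conditions (numpy 2.4.6), without regard to replicate numbers, so its smallest P is 0.0043. Tests were tried on simulated data, but the outcomes are not given here. How large a change edgeR could find at this depth is therefore not stated. In the study's methods, samples of both conditions were barcoded at reverse transcription and then pooled, without stating which samples shared a pool. The methods also state that resting and activated samples of a biological replicate were processed at the same time. That libraries with the same replicate number belong together was assumed here from the labels, which give condition and number. Deviations of same-numbered libraries from the group means correlated at 0.14 to 0.29 in 5 pairs, but 3 of 5 depolarized libraries correlated best with their own number, and differently numbered libraries within replicates 1 to 3 or 4 to 6 reached 0.26. 5′ UTRs were taken from GENCODE M21 (GRCm38) by gene name, from the longest coding mRNA, and may differ from those counted.

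By the rule that chose the genes, 1 gene is not reported here. The genes, lists and tests were chosen with earlier results of these data known. Genes named are the 20 with the most tags, the 5 with the smallest pooled P in each direction, the gene with the most tags in each family, and any called by edgeR. Others are named in counts of 5 or fewer or as well-known family members, after their values were seen.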

Additional observations from a re-analysis of the deposited data

Results flagged for a closer look

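In 17 measures (the share of tags on these genes and the levels of the 16 genes with at least 10 tags), each of 34 groups of libraries was examined for 1 library far from the others by Dixon's criterion. It singled out 5 groups. The usual rate of about 1 in 20, or 1.7 groups, holds for independent groups of normally distributed values. These are sparse counts from the same libraries, with many values at 0, so 5 cannot be set against 1.7. A group with a single tagged library and 0 elsewhere is always singled out. Pfn1 stood at 1.08 tags per 1000 in resting replicate 5, which is 1 tag, with 0 in the other 5 resting libraries. Pfn1 stood at 3.93 per 1000 in depolarized replicate 3 (9 tags), where the next library had 0.573. Stmn4 stood at 4.37 per 1000 in depolarized replicate 3 (10 tags), where the next had 1.05. Tubb5 stood at 10.8 per 1000 in resting replicate 2 (4 tags), where the next had 3.41. Tubb5 stood at 4.19 per 1000 in depolarized replicate 2 (4 tags), where the next had 0.437. In small libraries single tags weigh heavily, as 1 tag is 3.79 per 1000 in depolarized replicate 6 and 0.191 in depolarized replicate 1.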

How the results depend on the processing

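edgeR and DESeq2 called 0 of these genes in each alternative run, where the share called among all 5′ UTRs tested was 6.48% without replicate 1 (7 of 108 tested, a set that holds 8 of these genes), 0.339% without replicate 6, 0.315% with library totals without TMM, and 0.0% in the others. The pooled counts of genes with more and fewer tags, 11 and 4, were 5 and 1 at P below 0.05 (backgrounds 2.56% and 1.25%) and 7 and 2 for 5′ UTRs with at least 10 tags. They were 1 and 0 in replicates 4 to 6 only (3.73% and 1.44%), and 13 and 8 against the raw depolarized share of all tags (6.43% and 10.9%). With the replicate block 7 had more tags and 6 fewer, and the block ended 7 calls, among them Map1b (log2 ratio 0.33), and added Myh9, Myo16, Myl6, Tubgcp6 and Wasf1. It changed no edgeR call. Leaving out 1 replicate at a time gave 5 to 11 genes with more tags and 1 to 5 with fewer, the lowest of both without replicate 1, beside backgrounds of 4.53% to 5.32% and 2.1% to 4.78%. With 1 replicate left out, the pooled log2 fold change ranged from -3.12 to 3.32 for Kif1b and from -2.28 to 0.001 for Tubb5, both turned without replicate 1, and in replicates 4 to 6 only it turned to -2.92 for Pfn1. The edgeR log2 fold change ranged from -0.45 (without replicate 1) to 1.79 for Dynll2, and from -0.46 to 0.97 for Kif3c, -0.49 to 0.86 for Kif5a and -0.27 to 0.81 for Kif5b, lowest without replicate 3. Of 182 edgeR fold changes under alternatives 178 kept their direction. These runs share most of their libraries. A gene not tested in a run, such as Tubb5 without replicate 1, could not count as turned. The difference in share stayed positive, at 1.02 to 1.99 percentage points with 1 replicate left out. The split at replicates 1 to 3 and 4 to 6 for this share was chosen after seeing the data. The causes were not tested. In the smallest library 1 tag is 3.79 per 1000, which limits what can be read from genes with few tags.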
